A study of Mus musculus with 2 samples.

Results

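The 9 genes Postn, Thbs1, Thbs2, Sparc, Sparcl1, Tnc, Tnxb, Spp1 and Matn2 encode matricellular proteins and were described in single-cell RNA sequencing of mouse uterus. They were chosen by name, and all 9 were found once each among the 32285 genes counted. Each library was made from the uteri of 3 female C57BL/6J mice aged 6 months, pooled before capture. One library came from Prickle1 f/f mice and is labelled control. The other came from Prickle1 f/f MiC mice and is labelled cKO, which usually stands for conditional knockout. Both groups therefore carried the floxed Prickle1 allele, MiC is not explained in the labels, and the genotype given for both samples is wild-type. The series title places the loss of PRICKLE1 in the myometrium and names matrix deposition, which is the question these genes bear on. With 1 pool of mice a group no test between groups was possible, so values are given for each library with 95% counting intervals only, and the variation between mice is unknown.

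Matricellular proteins are secreted into the extracellular matrix, where they bind structural fibres, growth factors and cell surface receptors and regulate how cells attach and signal, rather than building the scaffold themselves. Many are low in resting adult tissue and are produced during remodelling, repair and fibrosis. The uterus remodels its stroma and muscle with each cycle and in pregnancy, and several of these proteins are made by its stromal and muscle cells.

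The bases in front of the start sites of the 3 genes whose class-level differences are followed most closely below are shown as reference. They are the RefSeq windows of 250 bases before the start, in build GRCm38.p6, taken for the start nearest to a GENCODE vM21 protein-coding start. Postn lies on the plus strand of chromosome 3 (54361109 to 54391037) and its window is chr3:54360857-54361106. Tnc lies on the minus strand of chromosome 4 (63959785 to 64047015) with the window chr4:64047016-64047265, and Sparc on the minus strand of chromosome 11 (55394500 to 55423183), with a start inside those bounds and the window chr11:55420081-55420330. Capitals mark TATAAA or GGGCGG on either strand.
Postn: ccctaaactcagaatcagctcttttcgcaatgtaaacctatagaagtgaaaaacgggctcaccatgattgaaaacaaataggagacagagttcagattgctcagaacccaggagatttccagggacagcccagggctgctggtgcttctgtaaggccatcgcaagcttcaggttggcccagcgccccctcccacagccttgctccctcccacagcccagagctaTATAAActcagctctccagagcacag
Tnc: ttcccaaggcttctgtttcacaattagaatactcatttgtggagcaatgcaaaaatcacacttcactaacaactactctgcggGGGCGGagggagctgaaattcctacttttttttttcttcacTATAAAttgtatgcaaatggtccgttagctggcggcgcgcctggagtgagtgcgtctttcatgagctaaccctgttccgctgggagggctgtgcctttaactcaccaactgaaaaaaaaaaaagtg
Sparc: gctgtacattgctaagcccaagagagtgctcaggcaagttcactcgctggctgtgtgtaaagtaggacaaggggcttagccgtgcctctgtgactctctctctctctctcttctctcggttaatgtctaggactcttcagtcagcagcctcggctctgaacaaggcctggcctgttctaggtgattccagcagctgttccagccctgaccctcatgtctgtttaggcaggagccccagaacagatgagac
Postn held TATAAA 26 to 21 bases before its start. Tnc held TATAAA 126 to 121 bases and GGGCGG 167 to 162 bases before its start, and Sparc held neither. TATAAA was found in 12.4% and GGGCGG in 32.7% of all 32851 such windows. None of the 3 windows held TGANTCA, present in 6.75% of all windows, or the CArG box, present in 1.47%, and these matches of letters describe the sequence only. Promoter windows were matched for 6 of the 9 genes. In GENCODE vM21, Thbs1, Sparcl1, Tnc, Tnxb and Matn2 each overlap a gene on the other strand (Gm29233, Gm26703, 8030451A03Rik, Cyp21a2-ps with Gm24389, and 9430069I07Rik), and Spp1 overlaps Gm42793 on its own strand.

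The libraries labelled control and cKO held 45035801 and 34261441 UMIs (unique molecular identifiers, each standing for 1 captured transcript molecule). They gave 3490 and 3586 cells with a median of 4953 and 4903 UMIs. Clusters were named by marker genes, with the 9 genes and other matrix genes kept out of the clustering. Fibroblast-like cells numbered 851 and 1341, smooth muscle-like cells 314 and 679, epithelium-like cells 1310 and 110, T or NK cell-like cells 346 and 748, and macrophage or monocyte-like cells 314 and 230. Prickle1, the targeted gene, gave 96 UMIs under the control label and 265 under the cKO label, 14 and 51 of them in smooth muscle-like cells. Scaled to CPM, that is to 1000000 UMIs of the cells or cell class counted in a library, this was 2.56 and 9.03 CPM over all cells. That contrast also carries the different cell numbers of the classes. In smooth muscle-like cells Prickle1 was at 14.5 and 24.4 CPM, and the interval of the log2 ratio, -0.13 to 1.72, spans 0. Prickle1 was thus not seen to be lower in the library labelled cKO. The labels do not say which exons are floxed, so 3-prime counts cannot check the deletion, and every direction below rests on the labels. The libraries shared 6 cell barcodes. A filter of 10 CPM in either library was passed by 9 interferon response genes in fibroblast-like cells and 3 in smooth muscle-like cells. Of these, 9 and 2 were lower by over 1.5-fold in the library labelled cKO, where 2.85% and 8.39% of all genes tested were. All but Cxcl10 in fibroblast-like cells (264.4 and 30.1 CPM) passed only through the library labelled control. Those genes could not have been counted as higher. The part of interferon response genes in the results below was not tested.

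Fibroblast-like cells held most of the UMIs of 8 of the 9 genes. In the libraries labelled control and cKO they held 24333 of 25612 and 31344 of 33644 Thbs2 UMIs, 89.6% and 92.7% of Sparc, 88.9% and 87.6% of Sparcl1, and 92.4% and 92.8% of Matn2. Postn was also a fibroblast-like transcript by amount, with 85.1% and 81.7% of its UMIs there, and smooth muscle-like cells held 7.52% and 14.8%. Tnc showed 84.7% and 88.0% in fibroblast-like cells, and Tnxb 88.9% and 91.2%. Thbs1 was spread more widely, with 72.1% and 77.4% in fibroblast-like cells and 6686 of 44624 and 5754 of 68846 UMIs in macrophage or monocyte-like cells. Spp1 was the exception, with 0.142% and 9.88% of its UMIs in fibroblast-like cells. Over all cells together every one of the 9 genes was higher in the library labelled cKO, from 1.53-fold for Matn2 to 3.83-fold for Tnc. That library also held more fibroblast-like cells and far fewer epithelium-like cells. The share of all genes that were higher over all cells was not computed, so nothing is read from this count. The comparisons that follow are therefore made within cell classes.

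**Figure D1:**
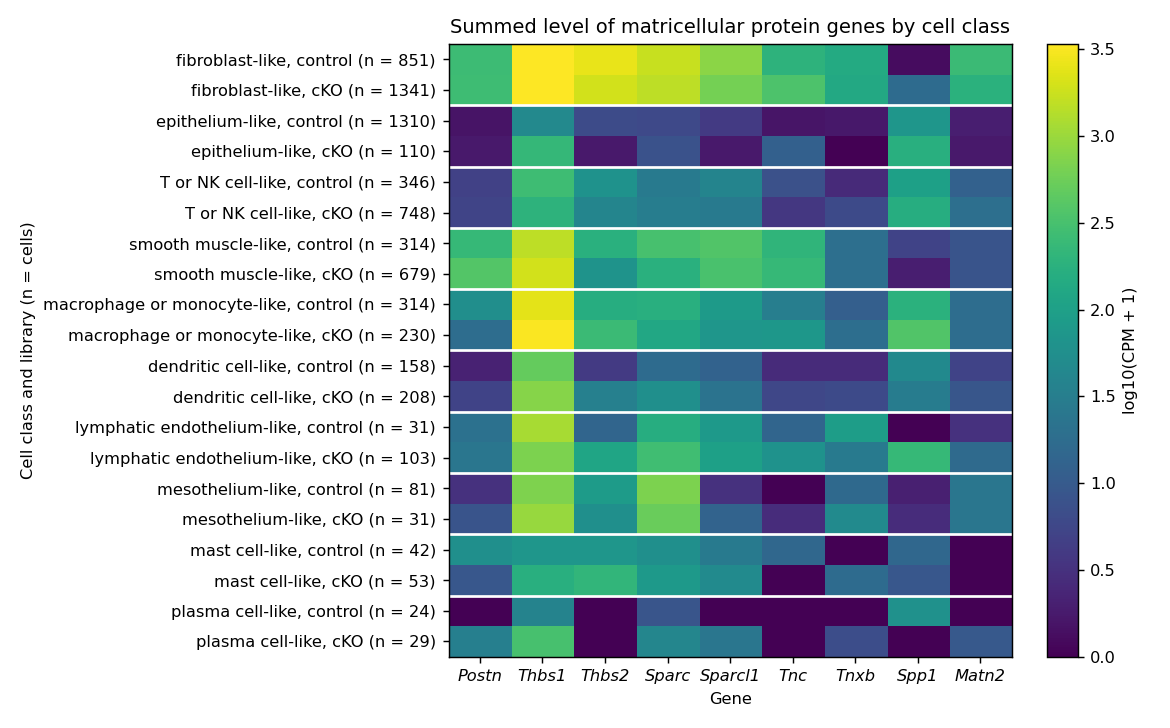
Level of each gene as log10(CPM + 1), with CPM as defined in the text, for each cell class with at least 20 cells in both libraries (rows, in pairs of libraries) and each of the 9 genes (columns). Fibroblast-like rows are the brightest for Thbs1, Thbs2, Sparc, Sparcl1, Tnxb and Matn2, while Postn (379.0 CPM under the cKO label) and Tnc (202.2 CPM under the control label) reach or pass the fibroblast-like level in smooth muscle-like rows.

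In smooth muscle-like cells, Postn was higher and Sparc lower in the library labelled cKO, and both differences were largest in the shallow cluster 11. Of the 9 genes, 7 reached 10 CPM in at least one library, and 1 of these was more than 1.5-fold higher and 2 more than 1.5-fold lower under the cKO label. Over all 8732 genes that passed the same filter, 18.6% were higher to that extent and 8.39% that much lower, so 1 higher gene of 7 is a share near that of all genes. The median log2 ratio was 0.20 over all genes and -0.03 over the 7, on the log2 scale after adding 5 CPM, which understates differences of low genes.

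Postn encodes periostin, a secreted protein that binds integrins and collagen and is induced by TGF-beta in many connective tissues. It stood at 228.1 CPM (220 UMIs, interval 199.0 to 260.3) in the library labelled control and 379.0 CPM (793 UMIs, 353.1 to 406.3) in the library labelled cKO, which gave a log2 ratio of 0.72 (0.52 to 0.95). UMIs of Postn were seen in 26.8% and 42.1% of smooth muscle-like cells, and in 13.7% and 22.8% with each cell thinned to 1000 UMIs. In T or NK cell-like cells, which should lack it, the share was 0.289% and 1.34%, at median depths of 4464 and 3714 UMIs against 1892 and 2010 in smooth muscle-like cells. The difference was uneven among the 3 smooth muscle-like clusters. Cluster 11, with a median of 1515 and 1339 UMIs per cell, went from 136.9 to 396.2 CPM (log2 ratio 1.50, 1.09 to 2.00). Cluster 16 held 257.7 and 345.0 CPM (0.41, 0.13 to 0.72), and cluster 12 held 439.0 and 461.9 CPM (0.07) with 12 cells in the library labelled control, 1 of which held 25 of its 42 UMIs. Without the highest cell of each library cluster 12 was at 0.73. Without cluster 11 the log2 ratio was 0.37, and with median-of-ratios scaling it was 0.54, both under the 1.5-fold line of 0.58. Haemoglobin and other erythroid markers summed to 47.7 and 975.5 CPM and epithelium markers to 136.9 and 12.9 CPM in these cells, and their part in the differences of this class was not tested.

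Sparc encodes SPARC or osteonectin, a collagen-binding glycoprotein of remodelling matrix. Its level in smooth muscle-like cells was 313.1 CPM (302 UMIs, 278.8 to 350.5) in the library labelled control and 174.0 CPM (364 UMIs, 156.6 to 192.8) in the library labelled cKO, which gave a log2 ratio of -0.83 (-1.07 to -0.62). Again cluster 11 carried it: Sparc was at 508.1 and 181.3 CPM there (-1.46, -1.85 to -1.13). In cluster 16 both libraries were at about the same level, 173.8 and 175.0 CPM (0.01, -0.36 to 0.39). Without cluster 11 the class ratio was -0.12. Fibroblast markers moved the same way in this class. Their sum was 859.5 and 501.9 CPM, with all 8 markers lower in the library labelled cKO. By cluster the sum was 976.7 and 777.4 CPM in cluster 11, where Sparc was lower too. It was 846.7 and 330.6 CPM in cluster 16, where Sparc was about equal. In cluster 12 it was 459.9 and 648.8 CPM. Sparc in fibroblast-like cells was 1697 and 1510 CPM. The part of fibroblast RNA in the Sparc difference was not tested. The dissociation response genes were lower in the same cells, 16580 and 11024 CPM in sum with 4 of 16 lower by over 1.5-fold, and their part was not tested either.

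Sparcl1 encodes SPARC-like 1 (hevin), a relative of SPARC. In smooth muscle-like cells it was at 368.1 CPM (355 UMIs) and 330.3 CPM (691 UMIs), a log2 ratio of -0.15 (-0.34 to 0.03). That near-equal class level joined clusters that differed in opposite directions. Cluster 11 was at 302.8 and 472.8 CPM (0.63, 0.32 to 0.97) and cluster 16 at 458.1 and 234.2 CPM (-0.95, -1.23 to -0.71), or -0.55 without the 3 highest cells of each library. Removing the cells of cluster 11 gave -0.54 for the class.

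The thrombospondins are multimeric glycoproteins with receptors that include CD47, CD36 and integrins. Thrombospondin 1 is also known to activate latent TGF-beta. Thbs1 was at 1525 CPM (1471 UMIs) and 1928 CPM (4033 UMIs) in smooth muscle-like cells, a log2 ratio of 0.34 (0.25 to 0.42) beside a median of 0.20 over all genes. Cluster 11 held little of it and did not differ, at 360.7 and 364.4 CPM (0.01, -0.31 to 0.34), and cluster 16 was at 2102 and 2383 CPM (0.18, 0.08 to 0.29). Its paralogue Thbs2 was at 172.1 CPM (166 UMIs) and 64.0 CPM (134 UMIs), a log2 ratio of -1.36 (-1.77 to -1.09), but these UMIs came from 10 of 314 and 31 of 679 cells. A lone cluster 16 cell of the library labelled control held 121 of the 166 UMIs, and the same cell held 121 UMIs of fibroblast markers beside 41 of smooth muscle markers. Without the 3 cells of each library that held most Thbs2, the ratio was 1.11, in the opposite direction. The Thbs2 difference in smooth muscle-like cells thus rested on a handful of cells, and intervals that treat UMIs as independent are too narrow for it.

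Tenascins are large multimeric glycoproteins. Tenascin C is induced in wounds and mechanically loaded tissue, and tenascin X, encoded by Tnxb, organises collagen fibrils. Tnc in smooth muscle-like cells was at 202.2 CPM (195 UMIs) and 228.0 CPM (477 UMIs), a log2 ratio of 0.17 (-0.07 to 0.42). Here too a cell weighed heavily: 90 of the 195 UMIs in the library labelled control came from 1 cell. Leaving out the 3 highest cells of each library gave 1.17, and median-of-ratios scaling gave -0.01. Tnc was seen in 13.1% and 17.2% of the cells, 6.05% and 10.3% after thinning, against 0.578% and 0.936% of T or NK cell-like cells. Within the class it was highest in cluster 12, at 313.6 CPM (30 UMIs in 12 cells) and 560.7 CPM (210 UMIs in 88 cells), a cluster led by Oxtr, Pgr and Dkk2 among others. Tnxb was low, 18.7 CPM (18 UMIs) and 18.2 CPM (38 UMIs), and its interval of -0.88 to 0.86 leaves a difference of that size undetectable at this depth. Spp1 gave 4 and 2 UMIs and Matn2 7 and 15 UMIs in smooth muscle-like cells, under 10 CPM in both libraries.

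**Figure D2:**
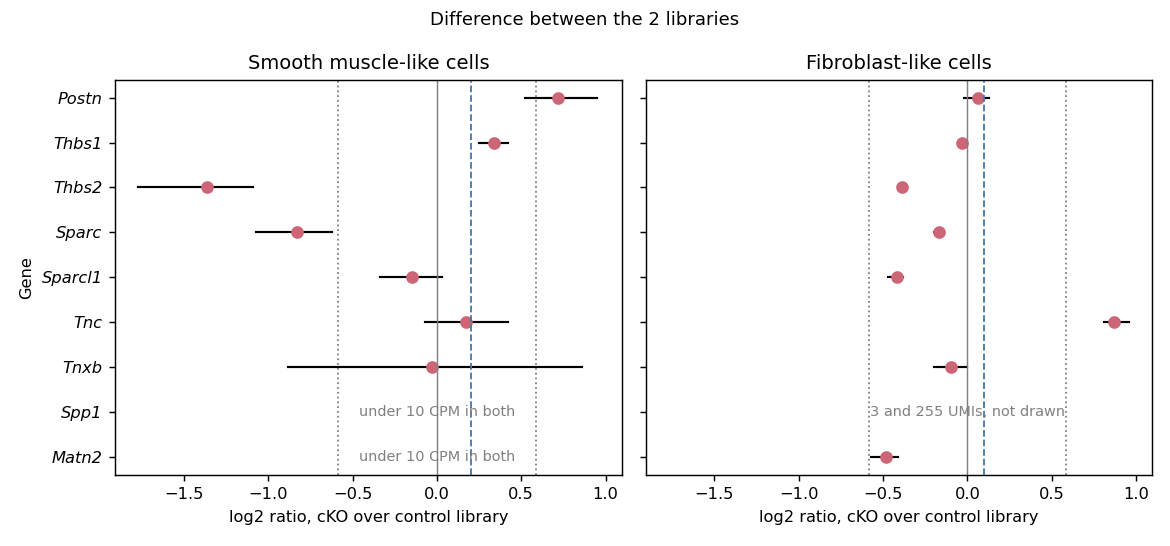
Log2 ratio, cKO-labelled over control-labelled library (x axis), for the genes (y axis) in smooth muscle-like cells and in fibroblast-like cells. Points are ratios after adding 5 CPM, black lines are 95% counting intervals of the ratio without that addition, dotted lines mark 1.5-fold, and the dashed line is the median of all genes in the class. Spp1 in fibroblast-like cells (1.98) had 3 and 255 UMIs and is not drawn, because genes with at most 3 UMIs in a library were left out. Its point would also fall outside its interval, which the added 5 CPM does not enter. Of the genes drawn in fibroblast-like cells Tnc is past 1.5-fold, at 0.87, and in smooth muscle-like cells Postn is above and Thbs2 and Sparc are below.

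In fibroblast-like cells, Tnc was higher in the library labelled cKO by class total, while its ratios within clusters turned with single cells. Thbs1 was near equal in total and higher within the 3 clusters that had at least 20 cells in both libraries. All 9 genes reached 10 CPM in either library. Of these, 2 were more than 1.5-fold higher, Tnc and Spp1, and 0 more than 1.5-fold lower, where 5.42% and 2.85% of the 8140 genes that passed the filter were. Spp1 passed only through the library labelled cKO, at 0.316 and 15.9 CPM, so it could not have been counted as lower. The median log2 ratio was 0.10 over all genes and -0.10 over the 9. The class was made of 5 clusters in very different proportions. Cluster 21 was led by Dio2, Aldh1a2, A2m, Tnc itself and Scube1 among others. It held 19 cells and 2.87% of the class's UMIs under the control label and 260 cells and 28.9% under the cKO label. Cluster 5, led by Ptx3, Dpt and Has2, held 37.0% and 44.2% of the UMIs, cluster 7 held 29.2% and 9.71%, and cluster 10 held 30.2% and 14.0%. Cluster 23, with 6 and 71 cells, and cluster 21 drew over 90% of their cells from the library labelled cKO, so cluster and library cannot be told apart there.

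Tnc was at 190.1 CPM (1805 UMIs, 181.4 to 199.1) in the library labelled control and 350.4 CPM (5618 UMIs, 341.3 to 359.7) in the library labelled cKO, which gave a log2 ratio of 0.87 (0.81 to 0.96). Cluster 21 held 12.4% of the class's Tnc UMIs under the control label and 66.4% under the cKO label. Its Tnc level was the highest of the clusters of the class, 821.4 CPM (19 cells) and 803.9 CPM (260 cells), a log2 ratio of -0.03. Tnc UMIs were seen in 47.4% and 51.2% of that cluster's cells, and in 26.3% and 25.8% after thinning. Of the 224 UMIs of cluster 21 under the control label, 139 came from 1 cell and 201 from 3, so neither equality nor a difference can be read from that cluster, and a counting interval is too narrow there. Without the highest cell of each library it was at 360.3 and 760.6 CPM (1.07). Cluster 5 was at 239.6 and 187.2 CPM (-0.35), but 1 cell held 298 of the 841 UMIs under the control label, and without the highest cell of each library the levels were 155.5 and 174.7 CPM (0.16). Cluster 10 was at 220.6 and 215.4 CPM (-0.03) and cluster 7 at 33.9 and 33.4 CPM (-0.02), and without the highest cells they were at -0.06 and 0.11. With the cluster levels of the library labelled cKO weighted by the cluster shares of the library labelled control, the class ratio was -0.18, and it was 0.16 without the highest cell of each cluster and library and 0.39 without the 3 highest. Without clusters 21 and 23 it was 0.00. With the 3 highest cells of the class left out in each library, the class ratio itself was 1.17, up from 0.87. The higher Tnc of the class went with more cells of cluster 21, and whether its level within clusters also differed could not be settled with so few Tnc-rich cells.

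Thbs1 was the most abundant of the 9 in fibroblast-like cells in UMIs, 3389 CPM (32182 UMIs) and 3323 CPM (53280 UMIs), a log2 ratio of -0.03 (-0.05 to -0.01). Within clusters it was higher under the cKO label in clusters 5, 7 and 10: 3964 and 4520 CPM (0.19), 3169 and 3989 CPM (0.33), and 3147 and 3708 CPM (0.24). The medians over all genes in these clusters were 0.08, 0.08 and 0.11. Cluster 21 had less Thbs1, 1533 and 1292 CPM (-0.25, and 0.28 without the 3 highest cells of each library), and made up a larger share of the class in the library labelled cKO. At the cluster mix of the library labelled control the class ratio was 0.24, which stayed under 1.5-fold.

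Thbs2 was at 2563 and 1955 CPM (-0.39, -0.41 to -0.37), and its levels differed widely between clusters. It was highest in cluster 10, led by Thbs2 itself, Mmp3 and Pdgfra among others, at 4467 and 4793 CPM (0.10), and this cluster shrank from 43.1% to 18.4% of the class's cells. Cluster 5 was at 2350 and 2402 CPM (0.03) and cluster 7 at 976.7 and 721.3 CPM (-0.43, -0.54 to -0.34). Cluster 21 was at 1925 CPM (525 UMIs in 19 cells, 386 of them in 3 cells) and 506.6 CPM (2349 UMIs). Without clusters 21 and 23 the class ratio was 0.03.

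Postn was at 262.2 CPM (2490 UMIs) and 272.6 CPM (4371 UMIs) in fibroblast-like cells, a log2 ratio of 0.06 (-0.02 to 0.13), again with opposite differences beneath. Cluster 5 was at 340.7 and 510.0 CPM (0.57, 0.49 to 0.68), while cluster 7 was at 305.9 and 176.0 CPM (intervals 285.6 to 327.2 and 155.8 to 198.1, log2 ratio -0.78) and cluster 10 at 137.7 and 109.2 CPM (-0.32, -0.57 to -0.10). Cells of cluster 7 with a Postn UMI were 41.8% and 22.2%, and 14.2% and 8.12% after thinning, at median depths of 9341 and 5237 UMIs. Sparc was at 1697 and 1510 CPM (-0.17, -0.20 to -0.14), with cluster 7 lower at 1561 and 1068 CPM (-0.55, -0.63 to -0.47), cluster 5 at 1389 and 1214 CPM (-0.19), and cluster 10 higher at 2252 and 2634 CPM (0.23, 0.17 to 0.28). When each cell counted equally, the Sparc ratio of the class was -0.73, and with cells thinned to 1000 UMIs it was -0.70. This ratio thus depended on how cells were weighted. Both settings also change the shares of the clusters: cluster 10 was 43.1% and 18.4% of the cells but 30.2% and 14.0% of the UMIs. The parts of depth and of cluster shares were not tested.

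Sparcl1 (828.9 and 617.2 CPM) and Matn2 (253.2 and 180.7 CPM) had the lowest class ratios, -0.42 (-0.47 to -0.38) and -0.48 (-0.57 to -0.41). Matn2 encodes matrilin 2, an adaptor that links matrix filaments. Both were low in cluster 21, Sparcl1 at 275.0 and 252.7 CPM and Matn2 at 33.0 and 65.3 CPM, the cluster that was larger in the library labelled cKO. In clusters 5 and 7 Sparcl1 had ratios of -0.04 and -0.06 and Matn2 of -0.14 and -0.04, and in cluster 10 they were -0.25 and 0.08. Tnxb was at 144.0 and 134.5 CPM (-0.10, -0.20 to 0.00) and at 0.06, 0.01 and 0.01 on the log2 scale in clusters 5, 7 and 10. Tnxb and Matn2 were thus within 0.14 of 0 in each of the 3 clusters, and a difference of 1.5-fold lay outside the counting intervals of both genes there.

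**Figure D3:**
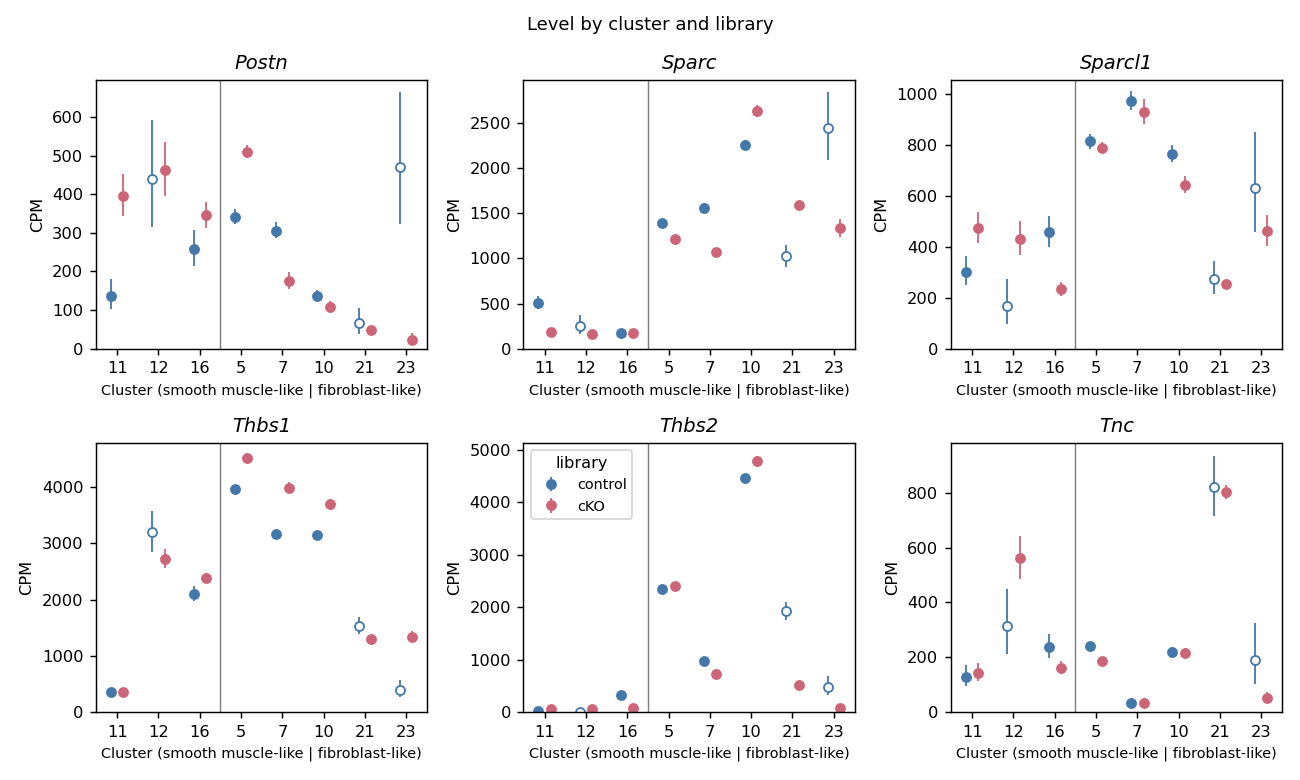
Level in CPM (y axis) of 6 of the genes in each smooth muscle-like (11, 12, 16) and fibroblast-like (5, 7, 10, 21, 23) cluster (x axis) in the 2 libraries, with exact 95% Poisson intervals and open symbols for fewer than 20 cells. Tnc is highest in cluster 21 of both libraries, where 1 of 19 cells held 139 of 224 UMIs under the control label. Among clusters with at least 20 cells in both libraries, Postn differs most in cluster 11. In cluster 23 Postn is at 470.4 and 22.3 CPM, with all 32 UMIs under the control label in 1 of 6 cells. Sparc differs in cluster 11 and not in cluster 16.

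Spp1 encodes osteopontin, an acidic phosphoprotein with an RGD site that binds integrins and CD44 and is made by macrophages and some epithelia. It was highest in granulocyte-like cells, where 5 cells of the library labelled control held 7 UMIs and 30 cells of the library labelled cKO held 494, of which 274 came from 1 cell. Macrophage or monocyte-like cells were at 180.1 CPM (499 UMIs, 164.6 to 196.6) and 373.9 CPM (658 UMIs, 345.9 to 403.6), a log2 ratio of 1.03 (0.88 to 1.22). The share of these cells with a Spp1 UMI was nearly the same, 21.7% and 22.6% (12.4% and 11.7% after thinning), against 0.353% and 0.820% of fibroblast-like cells at median depths of 9290 and 10017 UMIs. In that class 3 cells of the library labelled cKO held 272 of the 658 UMIs. T or NK cell-like cells were at 99.2 and 159.1 CPM (0.66) and epithelium-like cells at 70.5 and 168.3 CPM. In the 110 epithelium-like cells under the cKO label 1 cell held 110 of the 227 Spp1 UMIs, the share of cells with a UMI was 20.7% and 14.5%, and the ratio was 0.00 with thinned cells. In fibroblast-like cells Spp1 passed 1.5-fold with 3 and 255 UMIs, a ratio of 50.3 (17.0 to 245.7), but 224 of the 255 came from a lone cluster 21 cell. With the 3 highest cells of each library left out the log2 ratio was 0.20. Lymphatic endothelium-like cells gave 0 UMIs in 31 cells and 329 UMIs in 103 cells, 213 of them in 1 cell.

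Macrophage or monocyte-like cells also held much Thbs1, 2413 CPM (6686 UMIs, 2355 to 2471) and 3270 CPM (5754 UMIs, 3186 to 3355), a log2 ratio of 0.44 (0.39 to 0.49). It was seen in 40.8% and 34.8% of them and in 4.34% and 4.14% of T or NK cell-like cells. The 3 highest cells held 16.3% of the UMIs under the control label and 24.9% under the cKO label. The other fibroblast-rich genes in macrophage or monocyte-like cells came from few cells. Postn had 149 and 30 UMIs, and 78 of the 149 lay in a cell with 1010 UMIs of fibroblast markers beside 20 of macrophage or monocyte markers. The same cell held the most Thbs2 (111 UMIs) and Tnc (59 UMIs) of its class and library. Values of these genes in that class are given as measured, and the part of doublets was not tested.

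Apart from Spp1, the other classes held these genes at lower CPM than fibroblast-like cells. Granulocyte-like cells (5 and 30 cells) held Thbs1 at 1171 CPM (17 UMIs) and 1802 CPM (133 UMIs), close to its level in smooth muscle-like cells. Mesothelium-like cells (81 and 31 cells) held Sparc at 685.0 and 535.8 CPM and Thbs1 at 694.7 and 955.5 CPM, with 229 of the 535 Thbs1 UMIs under the cKO label in 1 cell. Lymphatic endothelium-like cells held Thbs1 at 1165 and 678.7 CPM, 216 of 534 UMIs in the library labelled control being in 1 cell. Sparc was at 159.3 and 282.7 CPM there, with 68 of 73 and 143 of 397 UMIs in 1 cell. Tnxb was at 91.7 and 26.4 CPM (42 and 37 UMIs) and Tnc at 13.1 and 61.2 CPM (6 and 86 UMIs). This class may also hold blood endothelium. Clustering at resolution 2.0 gave 22 and 75 lymphatic endothelium-like cells and 9 and 28 blood endothelium-like cells. Values here and above are for the class as a whole. Dendritic cell-like cells held Thbs1 at 501.3 and 763.6 CPM, and Sparc there was at 16.4 and 56.0 CPM, with 63 of the 107 UMIs under the cKO label in 1 cell and a ratio that went from 1.51 to 0.37 with the highest Scrublet scores removed. In epithelium-like cells 3 genes passed the filter, Thbs1, Tnc and Spp1. Thbs1 was at 44.9 CPM (849 UMIs) and 224.6 CPM (303 UMIs). Tnc was at 0.582 CPM (11 UMIs) and 11.1 CPM (15 UMIs). It passed only through the library labelled cKO, so it could not have been counted as lower. All 3 were past 1.5-fold higher, where 32.0% of all genes tested in that class were, and the cells came from different clusters. Under the cKO label 104 of 110 were in cluster 1, and under the control label 470 of 1310 were in cluster 1, 586 in cluster 0 and 224 in cluster 8. Within cluster 1 Thbs1 was at 57.1 and 230.0 CPM (1.92). Mast cell-like and plasma cell-like cells had at most 26 UMIs of any of the 9 genes in a library, except for 109 UMIs of Thbs1 in plasma cell-like cells of the library labelled cKO.

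**Figure D4:**
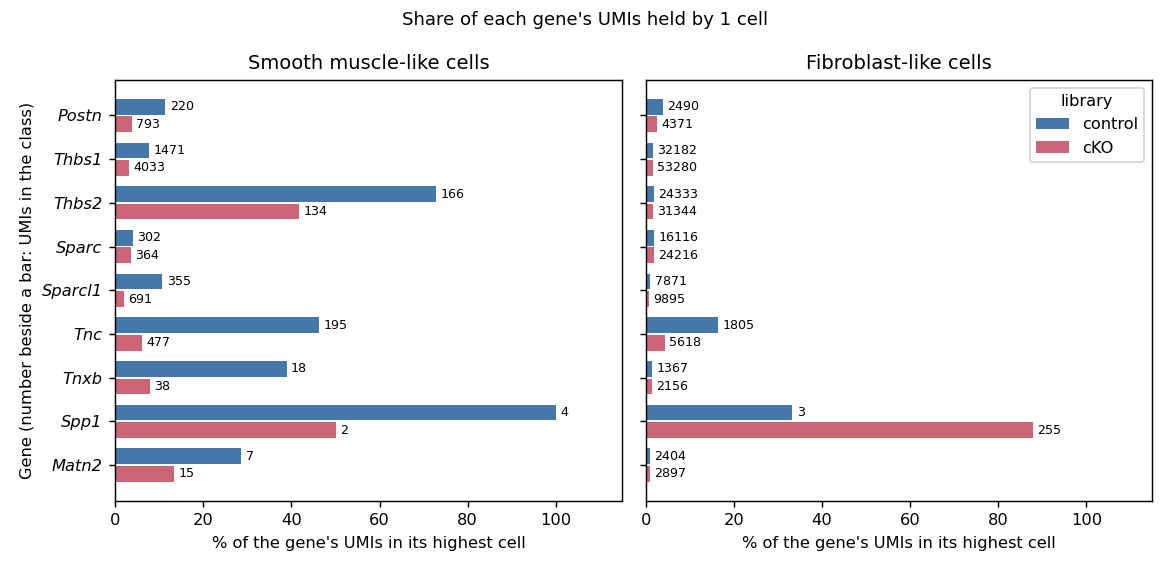
Percent of each gene's UMIs in a class that lay in its highest cell (bars, x axis from 0) for the 9 genes (y axis) and the 2 libraries, with the class's UMIs of the gene beside each bar. In smooth muscle-like cells of the library labelled control 72.9% of Thbs2 and 46.2% of Tnc UMIs lay in 1 cell, and in fibroblast-like cells of the library labelled cKO 87.8% of Spp1 UMIs did.

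Of 21 related matricellular genes (thrombospondin, CCN, SMOC, SPOCK, matrilin and tenascin relatives with Fstl1, Tgfbi and Comp), 10 passed the filter in fibroblast-like cells, and 5 were more than 1.5-fold higher and 0 lower under the cKO label, where 5.42% and 2.85% of all genes tested were. The 5 were Smoc2 at 24.6 and 109.4 CPM, Smoc1 at 6.63 and 18.3 CPM, Tgfbi at 65.6 and 114.7 CPM, Ccn2 at 255.5 and 427.5 CPM, and Spock2 at 7.48 and 14.6 CPM. Smoc1 and Spock2 passed the filter only through the library labelled cKO, so they could not have been counted as lower. Tgfbi is a paralogue of Postn, and Ccn2 (CTGF) is a known TGF-beta and YAP target. The median of the 10 related genes was 0.43, against 0.10 over all genes. All these values are class totals. Smoc2 was among the genes leading cluster 23, which held 6 and 71 cells. The part of cluster proportions in the ratios of related genes was not tested. In smooth muscle-like cells 9 passed, with Smoc1 (30.1 and 55.4 CPM), Smoc2 (24.9 and 46.8 CPM) and Spock2 (49.8 and 81.7 CPM) higher and Tgfbi (51.8 and 27.7 CPM) lower, where 18.6% and 8.39% of all genes tested were, and a median of 0.16 against 0.20. Tgfbi therefore differed in opposite directions in the 2 classes.

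Receptors of matricellular proteins were counted in the same way, and 13 of 19 passed the filter in fibroblast-like cells. Of these, 4 were more than 1.5-fold higher and 0 lower, beside 5.42% and 2.85% of all genes tested: Itga6 (5.37 and 34.5 CPM), Itgb3 (34.5 and 107.8 CPM), Itgb8 (6.32 and 16.7 CPM) and Itgb5 (62.1 and 97.9 CPM). Itga6 and Itgb8 passed the filter only through the library labelled cKO, so they could not have been counted as lower. Itgb3 and Itgb5 encode partners of integrin alpha V, which binds periostin, osteopontin and other members, while Itgav itself was at 350.9 and 373.5 CPM (0.09). The thrombospondin receptor Cd47 was at 197.8 and 272.3 CPM (0.45), and the osteopontin receptor Cd44 at 919.4 and 842.4 CPM (-0.13). In smooth muscle-like cells 14 passed, with Itgb8 (14.5 and 46.8 CPM) and Itga5 (962.2 and 1713 CPM) higher and Lrp1 (65.3 and 35.8 CPM) and Itga8 (17.6 and 9.56 CPM) lower. Itga8 had 17 and 20 UMIs and an interval of -1.89 to 0.14 that spans 0. It passed the filter only through the library labelled control, so it could not have been counted as higher. With 18.6% and 8.39% of all genes tested past 1.5-fold in that class, 2 higher and 2 lower of 14 are shares near those of all genes. The receptor values are class totals too, and the part of cluster proportions in them was not tested.

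Across 39 sums of a cluster in a library with at least 20 cells each, the genes most like each of the 9 in log2(CPM + 5) were searched among 8853 genes reaching 50 CPM. These correlations describe which cell clusters share the genes, and the sums share libraries and differ in depth. Sparc was nearest to Col1a2, Rcn3 and Col6a1 (Pearson r of 0.96 each), Thbs2 to Pde1a, Pdgfra and Chst11 (0.91, 0.90, 0.90), and Matn2 to Naalad2, Mmp2 and Htra3 (0.93 each). Tnc was nearest to Oxtr (0.91), Pgr (0.89) and Ptpn5 (0.89), the first pair being the oxytocin and progesterone receptors. Postn was nearest to Sparcl1 (0.90), a member of the same set, then Ptpn5 (0.89) and Pi15 (0.88). Sparcl1 was nearest to Plpp3, Cxcl12 and Prrx1 (0.92, 0.92, 0.91), and Tnxb to Nid1, Meg3 and Fstl1 (0.91, 0.90, 0.90). Thbs1 was nearest to Lrp1 (0.89), which encodes a receptor that binds thrombospondin 1, then Ddr2 and Ampd3 (0.82 each). Spp1 had the weakest likeness, to Fuca2, Itgam and Pip4k2c (0.76, 0.72, 0.70).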

How the data were processed

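The authors deposited unfiltered UMI counts per gene and barcode with no normalization. Cell Ranger is named as version 4 per the file headers and 6.1.1 per the submitters' processing notes, which also name build mm10. The annotation release is not given in the sources used here. Cells had at least 1000 UMIs, 500 genes and at most 20% mitochondrial UMIs. Both libraries were clustered together (scanpy 1.11.5, igraph 0.11.9, 2000 variable genes, 30 components, 15 neighbours, Leiden), with the 9 genes, their relatives, receptors and other matrix genes left out of the variable genes. Clusters were named from marker lists. Scrublet marked 4 of 7076 cells (0.0565%), so it did not work and doublets remain.

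UMIs were summed per library and class or cluster, scaled to CPM, and compared as log2 ratios after adding 5 CPM. A gene passed with 10 CPM in either library and was called past 1.5-fold. Intervals (scipy 1.17.1, 95%: exact Poisson, Clopper-Pearson and conditional) cover counting error only and treat UMIs as independent. PCR copies are collapsed by UMI. Levels of different genes are UMIs at transcript ends and were not scaled by length. Free RNA, from barcodes with at least 10 and under 100 UMIs, was estimated as at most 0.848% of the UMIs of smooth muscle-like cells and 0.627% of those of fibroblast-like cells in either library. Named were all 9 genes, Prickle1, up to 5 related genes or receptors past 1.5-fold per class and direction, and the 3 most alike genes per member. Cd47, Cd44 and Itgav were added after their values were seen. The members, lists and rules were chosen with earlier results of these data known. Scripts were tested on simulated counts. Alternatives were other scalings, pseudocounts, filters, clusterings, doublet and free RNA treatments and cluster mixes.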

Additional observations from a re-analysis of the deposited data

Results flagged for a closer look

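Several genes differed between the libraries in opposite directions in 2 groups of cells. Each case below had counting intervals that lay on opposite sides of 0, and no difference between groups was tested against variation between mice, since each group is 1 pool. Thbs1 had a log2 ratio of 0.34 in smooth muscle-like cells and -0.03 in fibroblast-like cells, a gap of 0.37. The fibroblast-like sign held in 13 of 18 alternatives and reached 0.30 without clusters drawn over 90% from 1 library, and Thbs1 was at 0.19, 0.33 and 0.24 in clusters 5, 7 and 10, so the opposite direction does not hold within clusters. Within smooth muscle-like cells, Thbs2 was at 1.14 in cluster 11 (8 and 28 UMIs) and -2.13 in cluster 16, a gap of 3.26 in which 1 cell held 121 of the 158 cluster 16 UMIs of the library labelled control. Without the 3 highest cells of each library cluster 16 was at 0.70, in the same direction as cluster 11. Sparcl1 was at 0.63 in cluster 11 and -0.95 in cluster 16, a gap of 1.59.

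Within fibroblast-like cells, Postn was at 0.57 in cluster 5 and -0.78 in cluster 7, a gap of 1.36, and at -0.32 in cluster 10, a gap of 0.90 to cluster 5. Sparc was at 0.23 in cluster 10 against -0.19 in cluster 5 (gap 0.42) and -0.55 in cluster 7 (gap 0.77). Thbs2 was at -0.43 in cluster 7 and 0.10 in cluster 10, a gap of 0.54. Median depth differed between the libraries in these clusters, from 18147 to 11691 UMIs in cluster 5, 9341 to 5237 in cluster 7 and 3263 to 7689 in cluster 10, and its part was not tested.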

How the results depend on the processing

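Without clusters drawn over 90% from 1 library, with the mean within clusters and at the cluster mix of the library labelled control, Tnc in fibroblast-like cells was at 0.00, -0.13 and -0.18, and each left 0 genes higher there. That count was 1 with the highest Scrublet scores removed, with thinned cells, without the 3 highest cells and with cells weighted equally. The count lower was 1 at resolution 2.0, with thinned cells, with equal weights and without cluster 10. In smooth muscle-like cells the count higher was 0 with median-of-ratios scaling and without cluster 11, and 3 with thinned cells, without the 3 highest cells and with equal weights. The count lower was 1 at 2000 UMIs per cell, at resolution 2.0, with the mean within clusters, without the 3 highest cells, with equal weights and without cluster 11. Thbs2 in smooth muscle-like cells was at 0.38 at resolution 2.0, 0.44 with all genes allowed and 1.11 without the 3 highest cells. With the highest Scrublet scores removed, Thbs2 in T or NK cell-like cells was at 0.35, Thbs2 and Tnc in macrophage or monocyte-like cells at -0.24 and -2.16, and Sparcl1 in dendritic cell-like cells at -0.20. Spp1 in T or NK cell-like cells was at -0.12 with the mean within clusters, and Thbs2 in macrophage or monocyte-like cells at -0.09 at resolution 0.5. The cause was not tested. Postn in smooth muscle-like cells lay between 0.37 and 1.04 over 18 alternatives. Median-of-ratios scaling moved the median of all genes in smooth muscle-like cells from 0.20 to 0.04. Removing single smooth muscle-like or fibroblast-like clusters, the highest cells, equal weights and the fixed cluster mix were chosen after seeing the data. No paired analysis was possible because each group is 1 library.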

Other observations

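Cluster 6, left unnamed with T or NK cell and fibroblast genes leading it together, held 14 and 24 cells. Spp1 gave 1 UMI there in the library labelled control and 43 UMIs in the library labelled cKO, in 1 and 7 cells, with 24 of the 43 in 1 cell.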
